A study of Mus musculus with 8 samples.

Results

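The genes of the proteasome were followed in primary mouse embryonic fibroblasts (MEFs), the connective tissue cells grown out of whole embryos, with and without glutamine. The members were all rows of the expression table whose gene name begins with Psm, a letter A to G and a digit, which gave 44 of 18132 rows. They comprised 14 constitutive subunits of the 20S core, 16 subunits of the 19S cap, 5 immune members (Psmb8, Psmb9, Psmb10, Psme1 and Psme2), 8 other regulators and assembly chaperones, and Psmc3ip, which shares the name but encodes a protein of meiotic recombination and is no proteasome subunit. Psma8, Psmb11, Psmd3, Psme2b and Psmg4 were not analysed here, and Psmg1 stood in the table only under its older name Dscr2, outside the naming rule.

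Expression was read on Illumina bead arrays (MouseRef-8 v2) from 8 samples, 2 arrays in each of 4 groups. The groups were Btg1-/- MEFs after 16 hours without glutamine, untreated Btg1-/- MEFs, wild type (WT) MEFs after 16 hours without glutamine, and untreated WT MEFs. Btg1 encodes an antiproliferative co-factor of transcription and mRNA turnover. All cells came from embryos at day 13.5, the Btg1-/- cells from Btg1 knockout mice. The methods name C57BL/6J for these mice and give no separate strain for the WT MEFs. No source used here states whether the arrays of 1 replicate number came from 1 embryo. The p-values therefore measure the spread between these arrays only. The methods describe starvation medium with dialyzed serum and the usual medium with heat-inactivated serum, so loss of glutamine and the change of serum cannot be told apart. The question was how the cells respond to loss of glutamine and whether loss of Btg1 alters that response.

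Values are log2 expression after robust multi-array (RMA) normalization by the authors, and a level of 3 is the background limit given in the methods. A row was tested if its mean reached 3 in at least 1 group, which 42 of 44 members and 12691 of all 18132 rows did. A row was called when limma, a linear model fitted over all arrays and rows, gave an adjusted p under 0.05 (Benjamini-Hochberg over all rows tested, two-sided). Btg1 itself averaged 10.43 in starved and 9.26 in untreated Btg1-/- MEFs, against 12.40 in starved and 11.20 in untreated WT MEFs, and was called lower in Btg1-/- MEFs in both conditions (log2 difference -1.97 and -1.94, adjusted p = 4.6e-05 and 5.5e-05). No source read here places its probe inside or outside the deleted part. The median of 9 fibroblast markers lay between 8.98 and 10.74 on all 8 arrays. Yet 4 of the 9 were called lower after starvation in Btg1-/- and 7 in WT MEFs, where 7.24% and 11.6% of all rows were. In starved MEFs 3 of the 9 were called higher in Btg1-/- than in WT MEFs, where 1.61% of all rows were. Macrophage genes (17 markers) had a median level of 7.57 and 5.99 in starved and 8.16 and 6.32 in untreated Btg1-/- MEFs (replicates 1 and 2), against 4.86 and 4.98 in starved and 4.79 and 4.92 in untreated WT MEFs. Both Btg1-/- replicates thus lay above all WT arrays, replicate 1 the furthest. Of 15 such markers tested, 12 in untreated and 10 in starved MEFs had both Btg1-/- arrays above both WT arrays, and 0 and 1 had both below. Of all 12691 rows tested, 2872 and 2808 had both above. Of the macrophage markers, Ptprc stayed between 2.33 and 2.97 and Itgam between 2.27 and 3.37 on all arrays. Fcer1g went the other way, at 2.13 starved and 2.35 untreated on replicate 1 of the Btg1-/- MEFs, against 7.26 to 7.69 on the other 6 arrays. Medians of 3 epithelial and 4 endothelial markers ranged over 3.70 to 5.25 and 3.21 to 4.12. Eif2s3y, a Y-linked gene, was at 9.49 in starved and 9.81 in untreated WT MEFs of replicate 2 and at most 3.25 on the other arrays. In such bulk samples, fewer cells of a type and less RNA per cell cannot be told apart.

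The proteasome degrades proteins that carry ubiquitin chains. Its 20S core is a barrel of outer rings of alpha subunits, which gate the entrance, and inner rings of beta subunits, which hold the catalytic sites. The 19S cap binds the ubiquitin chain, removes it, unfolds the substrate with a ring of ATPases and feeds it into the core. In immune cells and under interferon, the catalytic subunits Psmb6, Psmb7 and Psmb5 are replaced by Psmb9, Psmb10 and Psmb8, and the PA28 activator made of Psme1 and Psme2 can bind the core, which changes the peptides offered on MHC class I.

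After 16 hours without glutamine, members of the proteasome set were called in both directions, about as often as other genes. The calls that held in both genotypes without any single array were the rise of the assembly chaperone Psmg3 and the falls of the 19S subunit Psmd1 and of Psmc3ip. In Btg1-/- MEFs, 5 of the 42 members tested were higher and 3 lower, against a background of 8.44% of all rows higher and 7.24% lower. Of the 3, Psmb8 was tested only through the group where it was high. In WT MEFs, 7 of the 42 were higher and 4 lower, against 13.1% and 11.6% of all rows. Both shares of members thus lay near those of the whole table. In both genotypes, 5 members were called higher (Psmc2, Psmd4, Psmf1, Psmg2 and Psmg3) and 2 lower (Psmd1 and Psmc3ip). The 2 responses share no array but were fitted with 1 common estimate of the spread.

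**Figure D1:**
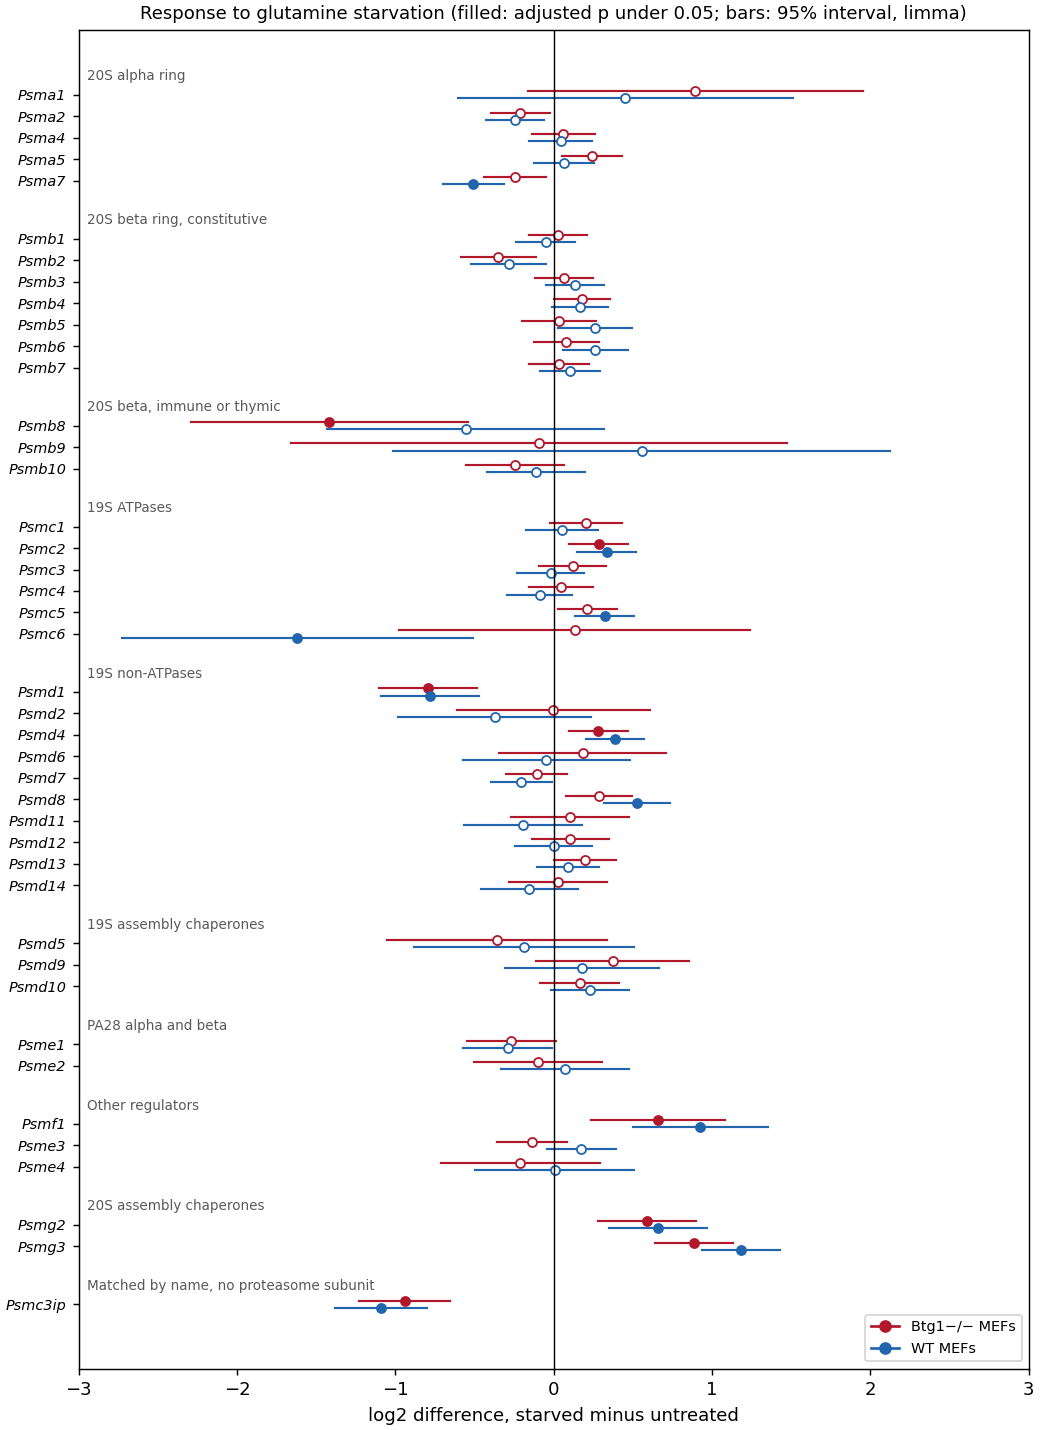
Log2 difference of starved minus untreated MEFs (x axis) for the 42 proteasome rows tested (y axis, grouped by role), in Btg1-/- MEFs (red, upper of each pair) and WT MEFs (blue, lower). Points are limma estimates from 2 arrays per group, bars are 95% intervals, and filled points have an adjusted p under 0.05. The constitutive beta ring lies close to 0 in both genotypes, whereas Psmg3, Psmg2 and Psmf1 lie to the right and Psmd1 and Psmc3ip to the left.

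Psmg3, a chaperone that helps build the alpha ring of the core, rose most among the called members. It stood at 9.87 and 9.70 in starved and 8.89 and 8.90 in untreated Btg1-/- MEFs. In WT MEFs it stood at 10.44 and 10.28 after starvation and 9.15 and 9.21 without it. Starved arrays lay above untreated ones in both genotypes, and the starved WT arrays were the highest of all. The log2 difference was 0.89 ± 0.11 in Btg1-/- MEFs (SE, 2 arrays per group, adjusted p = 0.0010 in limma), a 1.85-fold rise. In WT MEFs it was 1.18 ± 0.11, a 2.27-fold rise (adjusted p = 9.2e-05). Both calls held without any single array.

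Psmg2, which forms the other chaperone pair of the alpha ring together with Psmg1, rose as well. It stood at 9.97 and 9.94 in starved and 9.20 and 9.54 in untreated Btg1-/- MEFs, and at 10.19 and 10.21 in starved and 9.68 and 9.40 in untreated WT MEFs. No starved array overlapped an untreated one of its genotype. The log2 difference was 0.59 ± 0.14 in Btg1-/- MEFs (adjusted p = 0.019 in limma) and 0.66 ± 0.14 in WT MEFs (adjusted p = 0.0066). The first call was lost without replicate 1 of the untreated or either replicate of the starved Btg1-/- MEFs (adjusted p up to 0.102), and the other without replicate 2 of the untreated WT MEFs (0.060). Psmg1, read under Dscr2, differed by 0.40 ± 0.14 in Btg1-/- MEFs (adjusted p = 0.083 in limma) and 0.30 ± 0.14 in WT MEFs (0.148), and was not called. Pomp, which matures the beta ring, was not called either, with differences of 0.16 and 0.12.

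Psmf1, known from biochemical work as an inhibitor of the 20S core that competes with its activators, stood at 7.87 and 7.92 in starved and 7.51 and 6.96 in untreated Btg1-/- MEFs. In WT MEFs it stood at 8.37 and 8.40 after starvation, and at 7.56 and 7.36 without it. The untreated Btg1-/- arrays were far apart, whereas the starved arrays of each genotype were close to each other. The log2 difference was 0.66 ± 0.19 in Btg1-/- MEFs (adjusted p = 0.044 in limma) and 0.93 ± 0.19 in WT MEFs (0.0059). The WT call held without any single array. The Btg1-/- call held only without replicate 1 of the untreated Btg1-/- MEFs. Without their replicate 2 the difference was 0.38, and over the arrays left out the adjusted p reached 0.196. Of the further activators, Psme4, which caps the core in the nucleus, differed by -0.21 ± 0.22 in Btg1-/- and 0.01 ± 0.22 in WT MEFs. Psme3, the nuclear PA28 form, differed by -0.14 ± 0.10 in Btg1-/- and 0.17 ± 0.10 in WT MEFs. Neither was called.

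**Figure D2:**
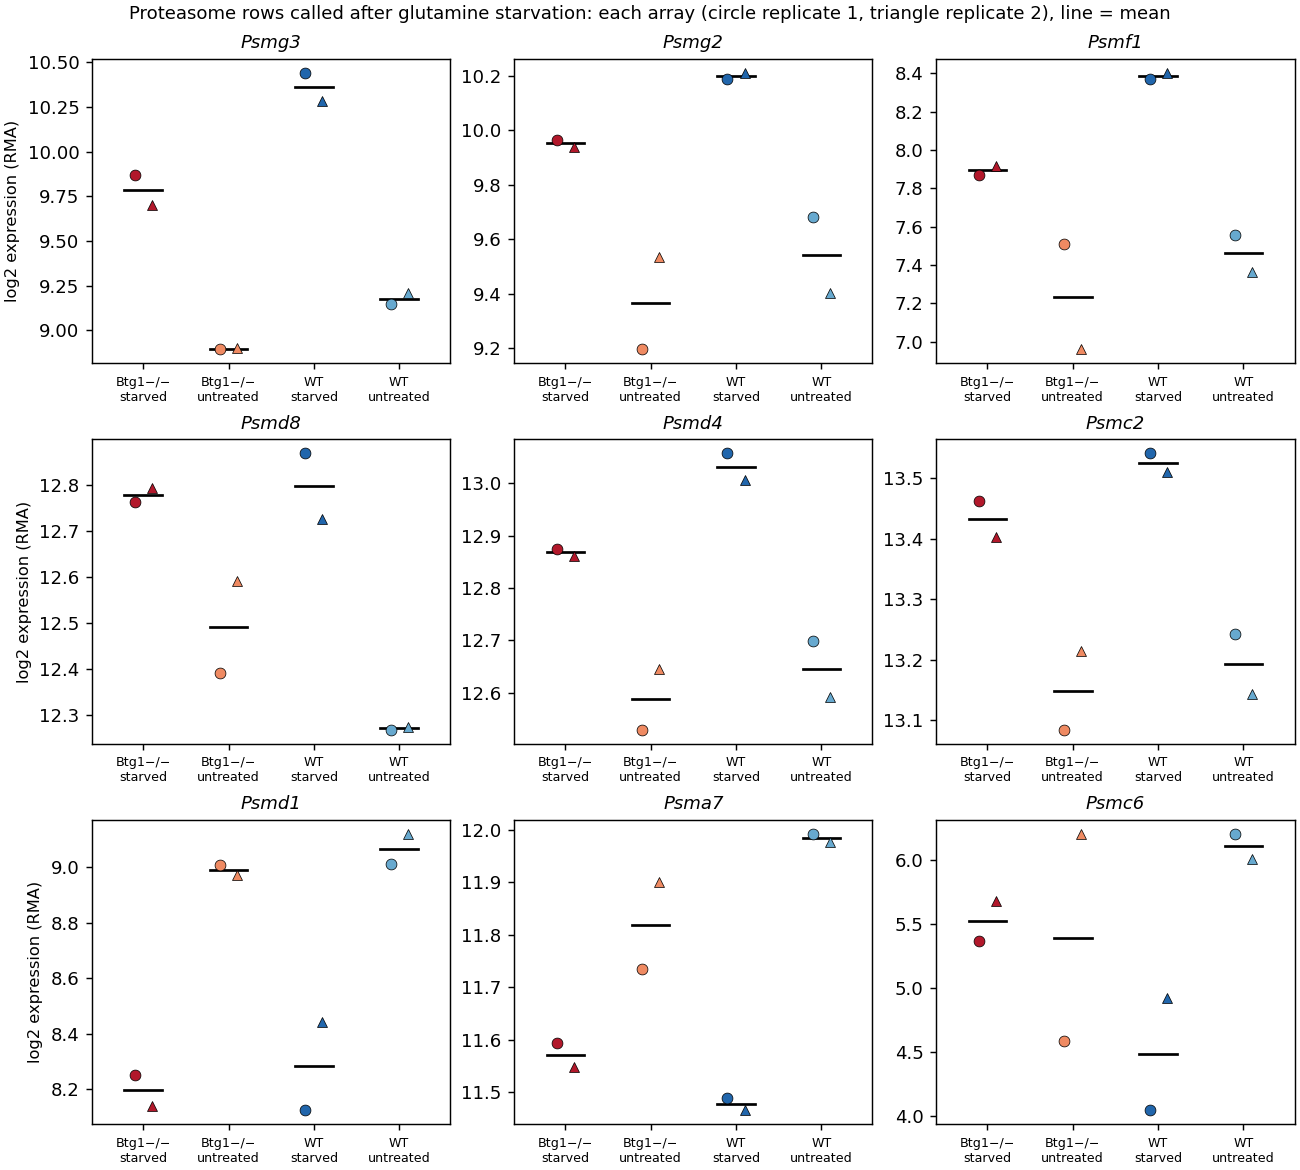
Log2 expression (RMA, y axis, a scale of its own for each gene) of 9 proteasome rows on each array, for starved and untreated Btg1-/- MEFs and starved and untreated WT MEFs (left to right). Circles are replicate 1, triangles replicate 2 and lines the mean of 2 arrays. Psmg3 arrays are separate in all 4 groups, whereas the untreated Btg1-/- arrays of Psmc6 (4.58 and 6.20) span most of its range.

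In the 19S cap, 2 of 16 subunits were called higher and 1 lower in Btg1-/- MEFs, and 4 higher and 2 lower in WT MEFs. Of all rows tested, 8.44% were called higher and 7.24% lower in Btg1-/- MEFs, and 13.1% and 11.6% in WT MEFs. The median log2 difference of the 16 was 0.13 in Btg1-/- and -0.03 in WT MEFs, against 0.03 over all rows tested in each genotype. Without single arrays the median ranged over 0.04 to 0.22 in Btg1-/- MEFs (0.04 without replicate 1 and 0.22 without replicate 2 of the untreated ones), and over -0.06 to 0.0093 in WT MEFs, where its sign turned without replicate 1 of the starved ones. The median size of change, whatever its sign, was 0.16 and 0.20, against 0.34 and 0.40 over all rows tested.

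Psmd1, the large scaffold of the 19S base, had the largest fall of the cap in Btg1-/- MEFs. It stood at 8.25 and 8.14 in starved and 9.01 and 8.97 in untreated Btg1-/- MEFs, and at 8.12 and 8.44 in starved and 9.01 and 9.12 in untreated WT MEFs. All starved arrays lay below all untreated ones. The log2 difference was -0.79 ± 0.14 in Btg1-/- MEFs (adjusted p = 0.0047 in limma) and -0.78 ± 0.14 in WT MEFs (0.0026), and both calls held without any single array. Psmd2, the other large scaffold of the base, was not called, with differences of 0.00 ± 0.27 in Btg1-/- MEFs and -0.37 ± 0.27 in WT MEFs.

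Psmd8, a lid subunit, stood at 12.76 and 12.79 in starved and 12.39 and 12.59 in untreated Btg1-/- MEFs, and at 12.87 and 12.73 in starved and 12.27 on both untreated WT arrays. Starved arrays were above untreated ones in each genotype. The rise in WT MEFs was 0.53 ± 0.09 (adjusted p = 0.0027 in limma) and held without any single array, and the difference in Btg1-/- MEFs was 0.29 ± 0.09 (adjusted p = 0.069). Psmd4, a ubiquitin receptor of the cap, stood at 12.87 and 12.86 in starved and 12.53 and 12.65 in untreated Btg1-/- MEFs, and at 13.06 and 13.01 in starved and 12.70 and 12.59 in untreated WT MEFs. It rose by 0.28 ± 0.08 in Btg1-/- MEFs (adjusted p = 0.048 in limma) and 0.39 ± 0.08 in WT MEFs (0.0073). Starved and untreated arrays did not overlap within either genotype, yet the Btg1-/- call was lost whichever of the 8 arrays was left out (adjusted p from 0.060 to 0.199), and the WT call without replicate 2 of the untreated or replicate 1 of the starved WT MEFs (up to 0.066).

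Among the ATPases, Psmc2 stood at 13.46 and 13.40 in starved and 13.08 and 13.21 in untreated Btg1-/- MEFs, and at 13.54 and 13.51 in starved and 13.24 and 13.14 in untreated WT MEFs. The rise was 0.28 ± 0.08 in Btg1-/- MEFs (adjusted p = 0.045 in limma) and 0.33 ± 0.08 in WT MEFs (0.015). The Btg1-/- call was lost without any single array (adjusted p from 0.052 to 0.199), and the WT call without replicate 2 of the untreated or either replicate of the starved WT MEFs (up to 0.110). Psmc5 rose by 0.32 ± 0.08 in WT MEFs (adjusted p = 0.019 in limma), a call that was lost without any 1 of the 4 WT arrays (up to 0.115), and differed by 0.21 ± 0.08 in Btg1-/- MEFs (0.126). Starved arrays lay above untreated ones for both ATPases in both genotypes.

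Psmc6, another ATPase, had the largest difference of all members but also a wide spread. It stood at 5.37 and 5.68 in starved and 4.58 and 6.20 in untreated Btg1-/- MEFs, and at 4.05 and 4.92 in starved and 6.20 and 6.01 in untreated WT MEFs. Starved WT arrays were below untreated WT arrays, whereas the Btg1-/- arrays overlapped. The fall in WT MEFs was 1.62 on the log2 scale (log2 difference -1.62 ± 0.49, adjusted p = 0.039 in limma), and the difference in Btg1-/- MEFs was 0.13 ± 0.49. The WT call was lost without either untreated WT array, without replicate 1 of the starved WT MEFs, or without either starved Btg1-/- array (adjusted p up to 0.238). The remaining 10 subunits of the cap were not called in either genotype. They included Psmd14, the deubiquitinase that removes the chain, with 0.03 ± 0.14 in Btg1-/- MEFs and -0.15 ± 0.14 in WT MEFs. The smallest differences of all members were those of Psmd2 and the beta subunit Psmb1 (0.03 ± 0.08) in Btg1-/- MEFs, and of the lid subunit Psmd12 (0.00 ± 0.11) and Psme4 in WT MEFs. The 19S assembly chaperones Psmd5, Psmd9 and Psmd10 were not called, with differences between -0.36 and 0.37.

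Of 12 constitutive 20S core subunits tested, none was called in Btg1-/- MEFs, where 8.44% of all rows were higher and 7.24% lower. At an unadjusted p under 0.05 in limma there were 5 of the 12, against 3681 of all 12691 rows. In WT MEFs 1 subunit was called lower, against 11.6% of all rows. This was Psma7, an alpha subunit, at 11.59 and 11.55 in starved and 11.74 and 11.90 in untreated Btg1-/- MEFs, and at 11.49 and 11.47 in starved and 11.99 and 11.98 in untreated WT MEFs. Starved arrays lay below untreated ones in both genotypes. It fell by 0.51 in WT MEFs (log2 difference -0.51 ± 0.09, adjusted p = 0.0023 in limma), also without any single array, and differed by -0.25 ± 0.09 in Btg1-/- MEFs (0.091). None of the 7 constitutive beta subunits was called. Their differences ran between -0.35 and 0.18 in Btg1-/- MEFs and between -0.28 and 0.26 in WT MEFs, and no 95% interval went below -0.59 or above 0.50.

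The 3 catalytic subunits were all among them. Psmb5, the chymotrypsin-like site, stood at 10.97 and 10.78 in starved and 10.76 and 10.91 in untreated Btg1-/- MEFs, and at 11.05 and 10.91 in starved and 10.73 and 10.71 in untreated WT MEFs. Psmb6, the caspase-like site, stood at 12.39 and 12.17 in starved and 12.17 and 12.23 in untreated Btg1-/- MEFs, and at 12.56 and 12.58 in starved and 12.32 and 12.30 in untreated WT MEFs. Psmb7, the trypsin-like site, stood at 11.74 and 11.65 in starved and 11.61 and 11.71 in untreated Btg1-/- MEFs, and at 11.95 and 11.89 in starved and 11.82 and 11.81 in untreated WT MEFs. For all 3, starved arrays were above untreated ones in WT MEFs and overlapped them in Btg1-/- MEFs. Of all 12691 rows tested, 4239 had both starved arrays above both untreated ones in WT MEFs, and 3754 in Btg1-/- MEFs. The differences of Psmb5, Psmb6 and Psmb7 in Btg1-/- MEFs were 0.04, 0.08 and 0.03. In WT MEFs they were 0.26, 0.26 and 0.10, with adjusted p of 0.101, 0.067 and 0.445 in limma.

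Of the alpha ring, 3 rows carried little or no signal. Psma3 and Psma6 averaged under 3 in every group and were not tested, and Psma1 reached the level of 3 only in starved Btg1-/- MEFs, through 1 array at 3.70. Psma1 therefore entered the test only through the group where it was highest. Its difference of 0.89 ± 0.47 in Btg1-/- MEFs was not called (adjusted p = 0.251 in limma).

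Psmc3ip, the row matched by name alone, stood at 7.86 and 7.95 in starved and 8.77 and 8.92 in untreated Btg1-/- MEFs, and at 8.76 and 8.52 in starved and 9.77 and 9.69 in untreated WT MEFs. Starved arrays lay below untreated ones in each genotype, and Btg1-/- arrays below WT arrays in each condition. Untreated Btg1-/- and starved WT arrays lay close together. The response was -0.94 ± 0.13 in Btg1-/- MEFs (adjusted p = 0.0015 in limma) and -1.09 ± 0.13 in WT MEFs (0.00031), and held without any single array.

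Genes known to control or accompany the proteasome were counted in the same way. Of 8 partner proteins tested, 1 was called higher in Btg1-/- and 2 in WT MEFs, and none lower, where 8.44% and 13.1% of all rows were called higher. Zfand2a, an arsenite-inducible protein that binds the 19S cap, rose by 1.05 ± 0.13 in Btg1-/- and 1.53 ± 0.13 in WT MEFs (adjusted p = 0.0010 and 6.2e-05 in limma). Ube3c, a ubiquitin ligase bound to the proteasome, rose by 0.40 ± 0.11 in WT MEFs (0.022).

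Of 6 regulators of proteasome genes, 1 was called higher in Btg1-/- MEFs, where 8.44% of all rows were. In WT MEFs 1 was called higher and 1 lower, against 13.1% and 11.6% of all rows. Nfe2l1, the transcription factor that raises proteasome genes when the proteasome is inhibited, stood at 12.03 and 11.90 in starved and 11.63 and 11.32 in untreated Btg1-/- MEFs. In WT MEFs it stood at 11.71 and 11.89 after starvation and 11.01 and 11.05 without it. Starved arrays were above untreated ones in both genotypes, with rises of 0.49 ± 0.12 in Btg1-/- MEFs (adjusted p = 0.020 in limma) and 0.77 ± 0.12 in WT MEFs (0.0012). Nfyc, a subunit of the factor that binds CCAAT boxes, fell by 0.63 in WT MEFs (log2 difference -0.63 ± 0.12, adjusted p = 0.0033 in limma).

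Of 11 genes of ubiquitin and its shuttles, 1 was called higher in Btg1-/- MEFs, where 8.44% of all rows were. In WT MEFs 2 were called higher and 1 lower, against 13.1% and 11.6% of all rows. Sqstm1, a receptor that carries ubiquitinated cargo to autophagosomes, rose by 2.16 ± 0.12 in Btg1-/- and 2.59 ± 0.12 in WT MEFs (adjusted p = 2.3e-05 and 3.9e-06 in limma). Nbr1, a related receptor, rose by 1.05 ± 0.25 in WT MEFs (0.013), and Vcp, the ATPase that extracts ubiquitinated proteins, fell by 0.27 there (log2 difference -0.27 ± 0.08, adjusted p = 0.033).

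Nfe2l1 binds antioxidant response elements, so promoters of the members were read for the core of that element. The promoter sequences are those of RefSeq (GRCm38.p6), of which 38 of the 44 genes had 41 entries, and the 250 bases before each start were searched on both strands. The core TGACNNNGC stood in 5 of the 41 windows (12.2%), against 10.2% of all 32851 promoter windows. The 5 windows are shown because they are where the members carry this core, in capitals, 5′ to 3′ along the strand of the gene, with up to 30 bases on each side.
Psmb5: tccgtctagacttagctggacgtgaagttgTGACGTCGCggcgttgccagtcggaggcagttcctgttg
Psmb6: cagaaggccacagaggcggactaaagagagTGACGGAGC
Psmc6: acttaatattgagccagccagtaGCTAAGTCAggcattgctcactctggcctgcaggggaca
Psmd12: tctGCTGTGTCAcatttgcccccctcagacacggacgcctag
Psmd9: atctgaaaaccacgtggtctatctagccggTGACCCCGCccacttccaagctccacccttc
They lie at chr14:54618004-54618072 (minus strand), chr11:70525318-70525356 (plus), chr14:45329574-45329635 (plus), chr11:107479278-107479319 (plus) and chr5:123228129-123228189 (plus). In Psmc6 and Psmd12 the core reads on the opposite strand. Of these 5 genes only Psmc6 was called, lower in WT MEFs, and Psmc2, Psmc5, Psmd4, Psmd8, Psmf1 and Psmg3, all called higher in at least 1 genotype, had no core in their windows. Psmg2, also called higher, had no promoter entry. Of the other motifs searched, the ATF4 and C/EBP composite element TGATGNAA stood in 1 window (2.44%, against 3.45% of all promoters), the interferon-stimulated core GAAANNGAA in 3 (7.32% against 7.13%) and CCAAT in 14 (34.1% against 33.8%). The GC box GGGCGG stood in 22 windows (53.7% against 32.7%). The motifs and the windows shown were chosen after expression values had been seen, the GC box and the windows shown also after a first motif search. These counts describe letters, not binding.

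None of the immune members was called higher after starvation. Psmb8, Psmb9, Psmb10, Psme1 and Psme2 gave 1 call, Psmb8 lower in Btg1-/- MEFs. Psmb8, the immune form of the chymotrypsin-like site, stood at 3.16 and 2.62 in starved and 4.65 and 3.97 in untreated Btg1-/- MEFs, against 2.61 and 2.15 in starved and 2.99 and 2.87 in untreated WT MEFs. Only untreated Btg1-/- MEFs reached a mean of 3, so the row was tested only through the group where it was high. The measured log2 difference in Btg1-/- MEFs was -1.42 ± 0.39 (adjusted p = 0.037 in limma). Entry through the high group favours such a call, so it carries little weight. With the starved mean set to the background level of 3, the untreated mean lay 2.48-fold above it. This is no lower bound, since the arrays of each group differed and starved replicate 1 was above that level. The call held with 1 of the 8 arrays left out, replicate 2 of the untreated Btg1-/- MEFs, and not with any other (up to 0.189). In WT MEFs the difference was -0.56 ± 0.39, between means under 3.

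Psmb9, the immune form of the caspase-like site, stood at 4.61 and 3.90 in starved and 5.62 and 3.09 in untreated Btg1-/- MEFs, against 3.98 and 4.24 in starved and 3.18 and 3.93 in untreated WT MEFs. The untreated Btg1-/- arrays enclosed all other arrays. Its difference was -0.09 ± 0.70 in Btg1-/- MEFs, with a 95% interval of -1.66 to 1.48, and 0.56 ± 0.70 in WT MEFs (-1.01 to 2.12). Its gene lies beside those of Psmb8, Tap1 and Tap2 in the MHC region.

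Psmb10, the immune form of the trypsin-like site, was well above background on all arrays, at 8.74 and 8.57 in starved and 9.06 and 8.73 in untreated Btg1-/- MEFs, and at 8.75 and 8.77 in starved and 8.91 and 8.83 in untreated WT MEFs. Its difference was -0.24 ± 0.14 in Btg1-/- MEFs (95% interval -0.55 to 0.07) and -0.11 ± 0.14 in WT MEFs (-0.42 to 0.20). Psme1, the alpha subunit of PA28, stood at 9.39 and 9.41 in starved and 9.75 and 9.58 in untreated Btg1-/- MEFs, and at 9.35 and 9.44 in starved and 9.84 and 9.53 in untreated WT MEFs. Its starved arrays lay below the untreated ones in both genotypes, with differences of -0.27 ± 0.13 (adjusted p = 0.196 in limma) in Btg1-/- MEFs and -0.29 ± 0.13 (0.130) in WT MEFs. Psme2, the beta subunit of PA28, stood at 8.24 and 8.69 in starved and 8.72 and 8.40 in untreated Btg1-/- MEFs, and at 8.69 and 8.67 in starved and 8.74 and 8.48 in untreated WT MEFs, with overlapping arrays and differences of -0.10 ± 0.18 and 0.07 ± 0.18.

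**Figure D3:**
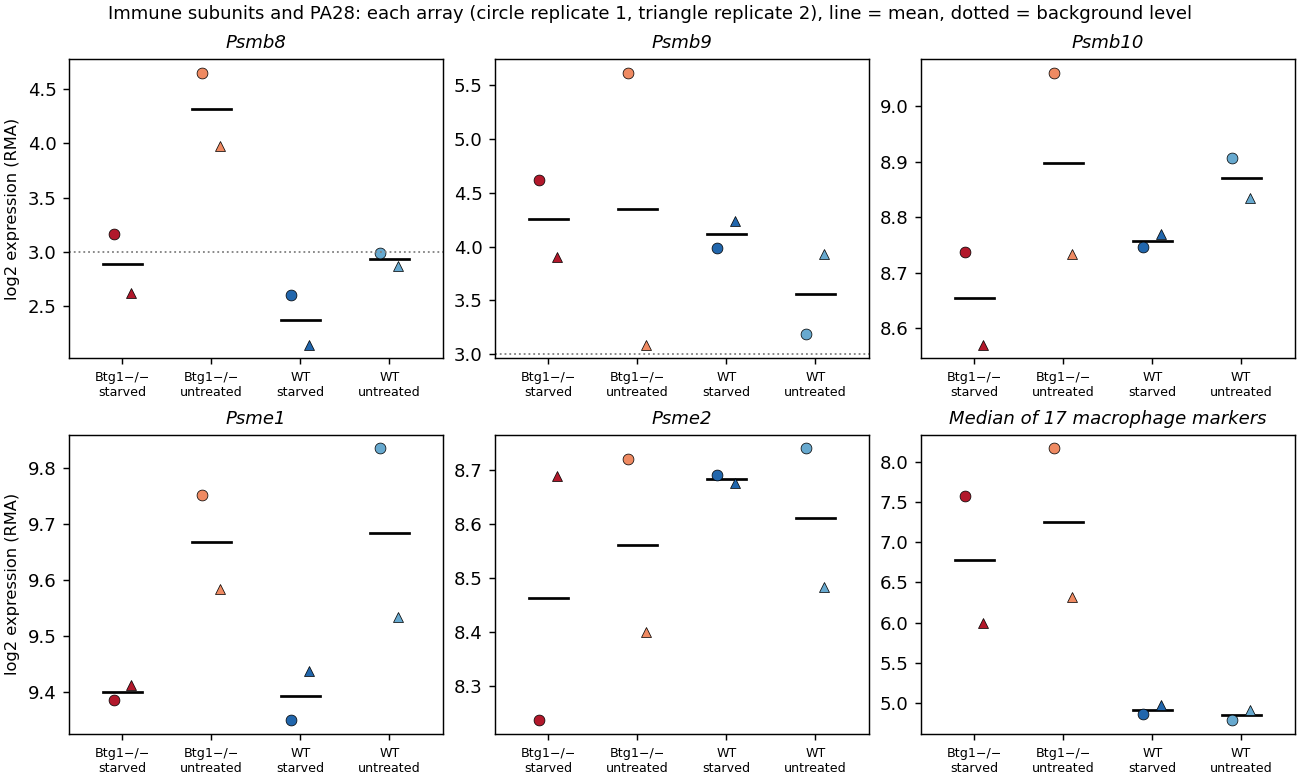
Log2 expression (RMA, y axis, a scale of its own for each panel) of the 5 immune members on each array, and the median of 17 macrophage markers, for starved and untreated Btg1-/- MEFs and starved and untreated WT MEFs (left to right). Circles are replicate 1, triangles replicate 2, lines the mean of 2 arrays and dotted lines the background level of 3. Psmb8, Psmb9 and Psmb10 are highest on replicate 1 of the untreated Btg1-/- MEFs, where the macrophage median is also highest.

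Replicate 1 of the untreated Btg1-/- MEFs held the highest value of Psmb8, Psmb9 and Psmb10, and also the highest macrophage marker median (8.16). Ifit3, an interferon-induced gene, was at 7.49 on that array, against 3.20 to 4.94 on the other 7. The median of 16 genes of MHC class I processing and interferon was 5.65 there, against 4.52 to 5.09. Not all of them were highest on that array. Irf1 was at 5.85, against 6.17 and 5.89 in untreated WT MEFs, and Tap1 at 5.15, against 5.50 on replicate 1 of the starved WT MEFs. The part of macrophages or of interferon in the immune members was not tested. In replicate 1 of the starved Btg1-/- MEFs the macrophage median was 7.57, with Psmb8 at 3.16, Psmb9 at 4.61 and Psmb10 at 8.74. In replicate 2 of the Btg1-/- MEFs Psmb8 was at 2.62 starved and 3.97 untreated, at macrophage medians of 5.99 and 6.32.

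Of 14 genes of MHC class I processing and interferon tested, 2 were called lower in Btg1-/- and 3 in WT MEFs, and none higher. Of all rows, 7.24% and 11.6% were called lower, and 8.44% and 13.1% higher. The calls in this list were chaperones of peptide loading that also fold other proteins of the endoplasmic reticulum, and an interferon regulatory factor. Calr fell in both genotypes, with log2 differences of -1.18 ± 0.15 in Btg1-/- MEFs (adjusted p = 0.0010 in limma) and -1.87 ± 0.15 in WT MEFs (4.4e-05). Pdia3 fell as well, by log2 differences of -0.35 ± 0.10 in Btg1-/- MEFs (0.040) and -0.77 ± 0.10 in WT MEFs (0.00046), and Irf1 fell in WT MEFs (-0.80 ± 0.25, 0.043). The peptide transporters Tap1 and Tap2 were not called, with differences of 0.25 and 0.28 in Btg1-/- MEFs and 0.59 and 0.78 in WT MEFs.

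Between genotypes, no subunit of the 20S core, the 19S cap or the immune set was called. In starved MEFs, 2 of 42 members were lower in Btg1-/- than in WT MEFs and none higher, against 0.638% of all rows lower and 1.61% higher. In untreated MEFs, 1 was lower and none higher, against 0.276% and 0.386%. At an unadjusted p under 0.05 there were 7 of 42 members in each condition, against 2137 of all 12691 rows in starved and 2193 in untreated MEFs. An unpaired t-test per row, which the methods name in general but not for the arrays, called no member after adjustment and at most 1 of all rows. Psmc3ip was lower by 0.73 in starved (log2 difference -0.73 ± 0.13, adjusted p = 0.026 in limma) and by 0.88 in untreated Btg1-/- MEFs (-0.88 ± 0.13, 0.023). Psmg3 was lower in starved Btg1-/- MEFs (-0.58 ± 0.11, 0.035) and differed by -0.28 ± 0.11 in untreated MEFs (0.229). These 3 calls were sensitive to single arrays. The Psmg3 call held without either untreated Btg1-/- array and was lost without each of the other 6 (adjusted p up to 0.325). The Psmc3ip call in starved MEFs was lost without either untreated WT array, replicate 1 of the starved WT MEFs or either starved Btg1-/- array (up to 0.257), and the one in untreated MEFs without either untreated WT array or replicate 1 of the untreated Btg1-/- MEFs (up to 0.173).

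**Figure D4:**
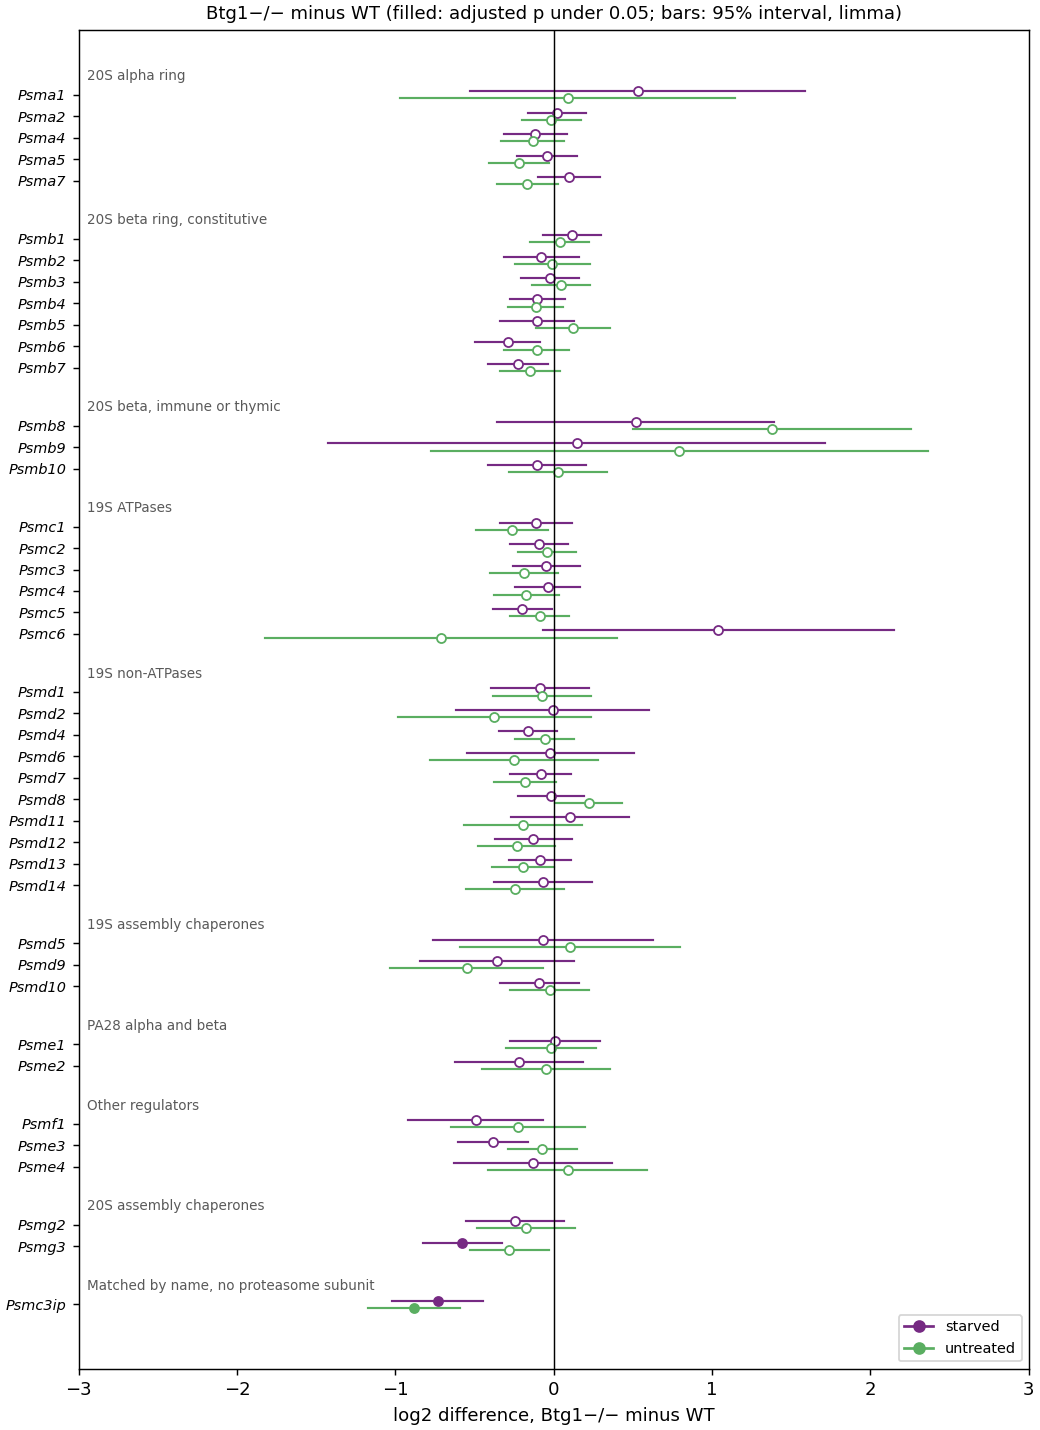
Log2 difference of Btg1-/- minus WT MEFs (x axis) for the 42 proteasome rows tested (y axis, grouped by role), starved (purple, upper of each pair) and untreated (green, lower). Points are limma estimates from 2 arrays per group, bars are 95% intervals, and filled points have an adjusted p under 0.05. Only Psmc3ip and Psmg3 are filled, and most 19S subunits lie slightly left of 0.

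Most 19S subunits had a lower mean in Btg1-/- than in WT MEFs, without any call. In starved MEFs 14 of its 16 subunits, and in untreated MEFs 15 of 16, had a lower mean in Btg1-/- than in WT MEFs. Of all 12691 rows tested, 6756 in starved and 6618 in untreated MEFs did so. The medians of the cap were -0.07 and -0.19 (all rows tested: -0.03 and -0.02). Its subunits were read on the same arrays, so they are not independent of each other. Psmd8 was the exception in untreated MEFs, at 12.39 and 12.59 in Btg1-/- and 12.27 on both arrays in WT MEFs. In starved MEFs the exceptions were Psmd11 (0.10 ± 0.17) and Psmc6, whose difference of 1.04 ± 0.49, with both Btg1-/- arrays above both WT arrays, was far larger than the others of the cap and stood beside -0.71 ± 0.49 in untreated MEFs. In untreated MEFs, both Btg1-/- arrays lay below both WT arrays for 11 of the 16 subunits, where 25.3% of all rows did so, and for 16 of the 28 core and cap subunits together. In starved MEFs the counts were 6 of 16 and 10 of 28, where 27.3% of all rows did so. The 12 core subunits had medians of -0.06 in both conditions.

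The pattern in untreated MEFs leaned in part on 1 array. Replicate 1 of the untreated Btg1-/- MEFs was lower than replicate 2 for 25 of the 28 core and cap subunits, where 52.6% of all rows were, and it was also the array with the macrophage marker median of 8.16. Without replicate 1 of the Btg1-/- MEFs at both times, the median of the 19S cap was -0.10 in starved and -0.11 in untreated MEFs, with 11 and 12 of 16 subunits lower in Btg1-/- MEFs. The medians over all rows were then -0.011 and -0.00049. With all arrays the cap had -0.07 and -0.19, so only the untreated median came closer to that of all rows. Replicate 2, which stayed in, had macrophage medians of 5.99 starved and 6.32 untreated, against 4.79 to 4.98 on the WT arrays. Leaving out replicate 1 thus did not remove that difference between genotypes. The part of other cell types in the size of these differences was not tested. Without replicate 1 of the Btg1-/- MEFs at both times, the median response of the cap in Btg1-/- MEFs was 0.03 rather than 0.13.

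The difference between the responses, Btg1-/- minus WT, was tested directly. No member was called, nor was any of the 12691 rows (0.0%). At an unadjusted p under 0.05 there were 2 members and 815 rows. For the members called in 1 genotype alone, the difference in response was 0.26 ± 0.12 for Psma7, -0.11 ± 0.12 for Psmc5, 1.75 ± 0.70 for Psmc6 and -0.24 ± 0.13 for Psmd8, with adjusted p from 0.754 to 0.914 in limma. For Psmb8, with 3 of its 4 group means under the background level of 3, no difference of responses is given. For Psmg3 it was -0.30 ± 0.16 (0.826) and for Psmf1 -0.27 ± 0.27 (0.913). The 95% intervals of the 7 constitutive beta subunits all lay within -0.56 to 0.34, so larger differences of response in the core's beta ring were outside these intervals.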

How the data were processed

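The deposited table holds 1 log2 value per row and array, which the authors made by RMA normalization in ArrayStar. The submitters' processing notes name GenomeStudio 2011.1. A second deposited table holds the authors' group means and fold ratios of starved to untreated cells, which were not used except to check the means: 18109 shared rows differed by at most 5e-06. The array files give no bead counts or genome coordinates, so precision is limited by the number of arrays, and levels were not compared between genes.

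The 12691 rows whose mean reached 3 in some group were fitted in limma 3.58.1 (R 4.3.3), 4 group means over all 8 arrays, and p-values were adjusted over them. The prior variance followed intensity (residual degrees of freedom 4, prior 5.48). The fit was tested on simulated data. Replicates of a group correlated at 0.984 to 0.988. Gene names were matched through older symbols where needed (Dscr2 for Psmg1). The members and lists were chosen with earlier results of these data known. Named were the immune members with Psmb5, Psmb6 and Psmb7, every called member (in full for up to 4 per class), the 2 largest and 2 smallest changes in each response, members moving oppositely in the genotypes, and up to 4 called rows of each related list. Uncalled genes outside these criteria, among them Psmd14, Pomp, Psmg1, Ifit3, Tap1, Tap2, Psmd5, Psmd9 and Psmd10, were named for their known roles after values were seen. Alternatives were a replicate block, other filters, quantile or median scaling, no trend, separate fits, a t-test per row, the methods' fold rule, and arrays left out.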

Additional observations from a re-analysis of the deposited data

Results flagged for a closer look

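Psme3, the nuclear form of the PA28 activator, was the only member whose arrays moved in opposite directions in the genotypes with no overlap in either. Of all 12691 rows tested, 4239 had both starved arrays above both untreated ones in WT MEFs. In Btg1-/- MEFs 3240 rows had both below. How many rows did both was not counted, so the pattern is not read as particular to Psme3. It stood at 9.99 and 9.88 in starved and 10.04 and 10.11 in untreated Btg1-/- MEFs, and at 10.38 and 10.27 in starved and 10.14 and 10.16 in untreated WT MEFs. The response was -0.14 ± 0.10 in Btg1-/- MEFs and 0.17 ± 0.10 in WT MEFs, and neither was called. The difference between the responses was -0.31 ± 0.14 on the log2 scale (adjusted p = 0.766 in limma), which did not pass the test.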

How the results depend on the processing

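Counts of proteasome rows called are given for the response of Btg1-/- MEFs (8), the response of WT MEFs (11), Btg1-/- minus WT starved (2) and untreated (1), and the difference in response (0), in that order. Without an intensity trend they were 4, 7, 0, 0 and 0. A t-test per row gave 0 in all 5 after adjustment (at most 1 of all 12691 rows), and 7, 15, 7, 3 and 2 unadjusted. A fold of at least 3 gave 0, 1, 0, 0 and 1. Fitting each comparison on its own arrays gave 3, 13, 2 and 0, and no filter on low values gave 5 for the first. With the replicate number as a block they were 10, 11, 2, 1 and 0. The difference of replicate 1 minus replicate 2 correlated over rows between starved and untreated MEFs at 0.243 in Btg1-/- and 0.118 in WT MEFs. At both times, Eif2s3y was high only on replicate 2 of the WT MEFs. Fcer1g was low only on replicate 1 of the Btg1-/- MEFs, also at both times. Within a genotype these 2 genes thus followed the replicate number, whereas the main fit did not pair arrays by it. Whether a number marks 1 embryo is not stated. Leaving out single arrays gave 3 to 6, 6 to 12, 0 to 2, 0 to 1 and 0. Leaving out replicate 1 of the Btg1-/- MEFs at both times gave 4, 13, 0, 0 and 0, and replicate 2 of the WT MEFs 3, 3, 0, 0 and 0. Quantile and median scaling changed no count by over 1.5 times. The cause of these changes was not tested.

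Over 46 differences of named members, 813 alternative values kept direction and side of the threshold 649 times, lost the call 131 times and turned sign 33 times. All 33 concerned Psmb9, Psmb10, Psme1 or Psme2, which were not called. Differences that were not called counted as kept when they stayed uncalled, whereas all 131 losses concerned called ones. The 649 therefore do not measure how firmly the calls held. Without single arrays, the Btg1-/- minus WT difference in starved and in untreated MEFs ranged over -0.21 to 0.50 and -0.47 to 2.06 for Psmb9, -0.038 to 0.050 and -0.17 to 0.13 for Psme1, and -0.45 to 0.0064 and -0.21 to 0.11 for Psme2, and over -0.14 to 0.19 for Psmb10 in untreated MEFs. The response in Btg1-/- MEFs ranged over -1.36 to 1.17 for Psmb9 and -0.32 to 0.13 for Psme2, and that in WT MEFs over -0.057 to 0.20 for Psme2. The difference in response ranged over -1.91 to 0.62 for Psmb9, -0.29 to 0.033 for Psmb10, -0.13 to 0.17 for Psme1 and -0.40 to 0.057 for Psme2. Without replicate 1 of the Btg1-/- MEFs at both times, Psmb9 had -0.21 and -0.47 between genotypes, 0.81 in its response and 0.26 in the difference in response, Psme2 0.0064 between starved genotypes, 0.29 and 0.22, and Psmb10 -0.14 between untreated genotypes. Without replicate 2 of the WT MEFs at both times, Psmb10 had -0.010 there and Psme2 a WT response of -0.049. Quantile scaling gave -0.00792 for Psme1 between starved genotypes. With 2 arrays a group and values near the background level of 3, the intervals of Psmb8 and Psmb9 are wide.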
